A study of Mus musculus with 48 samples.

Results

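The regional identity of the aorta without elastin was described from the 8 arrays of Eln knockout (KO) tissue among the 48 arrays of the study, chosen as every sample titled Eln KO. They held 4 arrays of ascending aorta (AA) and 4 of descending aorta (DA), with 2 arrays per location on embryonic day 17.5 (E17.5) and 2 on postnatal day 1 (P1). All came from C57BL/6 mice labelled KO for Eln, and the labels state neither the allele nor whether the deletion is limited to a cell type. Aortas were snap frozen, tissue of like kind was pooled from 8 animals for each array, and 5 ng of RNA was amplified with a NuGEN Ovation Pico WTA kit and labelled with biotin. The study also profiled mice without Efemp2 or Lox, whose proteins help assemble and cross-link the elastic fibre, and wild-type (WT) mice of each model. The Eln WT reference was 8 arrays of the same strain, locations and stages, and the Efemp2 KO and Lox KO arrays, 8 each with the same layout, came from C57BL/6 and B6 albino mice. No label says whether the 2 pools of a group were collected or processed apart, so p values measure the spread between such pools only. That spread was estimated over all 48 arrays, not from the KO arrays alone.

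The ascending and descending aorta differ in the origin of their smooth muscle. Neural crest and second heart field cells build the ascending segment, and cells of the somites build most of the descending one. Hox transcription factors are switched on in order along the trunk and keep a record of position in many adult mesenchymal cells. Elastin is the core of the elastic lamellae, and mice that lack it form narrow, obstructed arteries and die soon after birth.

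The deleted gene read low in every KO array. Eln gave log2 signals of 4.84 and 4.65 (E17.5) and 5.57 and 5.32 (P1) in AA, against 4.23 and 4.69 (E17.5) and 5.29 and 5.24 (P1) in DA. The Eln WT arrays lay between 9.21 and 11.91, so the genotypes did not overlap, although 1 WT DA array at P1 stood at 9.21 where its partner read 11.65. In the KO, Eln did not differ between the locations beyond the spread (-0.23 ± 0.31, DA less AA with its standard error, adjusted p = 0.81). That error pools the replicate spread of all groups, those 2 WT DA arrays at P1 included. Array medians ran from 4.35 to 4.72 in the KO. Array background, read as the median signal of 1390 odorant and pheromone receptor genes, ran from 2.30 to 2.86. Replicate KO arrays correlated across genes at 0.956 to 0.986. All 22 smooth muscle contractile genes listed for this work were measured, and their summed log2 level was 14.01 to 14.71 in the 8 KO arrays.

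The ascending and descending segments of elastin-null aorta differed in a broad set of genes. With DA less AA taken within each stage and averaged, 318 of 15337 genes (2.07%) passed an adjusted p of 0.05 in limma, 223 higher in DA (1.45%) and 95 higher in AA (0.619%). The sizes of these differences ran from 0.50 to 2.51 log2 units on the DA side and to -1.60 on the AA side, with a median of 0.86. Of the DA genes 95 differed by 1 or more, and of the AA genes 17 did. All 318 had the same sign at both stages. They were called from these same arrays, so this sign and the lack of overlap given next follow in part from that choice. At both stages the 2 DA arrays lay above the 2 AA arrays for 197 of the 223 DA genes, a pattern that 8.25% of all tested genes had, and the reverse held for 91 of the 95 AA genes, against 5.11% of all. The count fell to 87 without the first AA replicate at E17.5 and to 106 in a fit of the 8 KO arrays alone. An array reads a bulk tissue, so more cells of a type and more RNA per cell cannot be told apart in any of these differences.

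**Figure D1:**
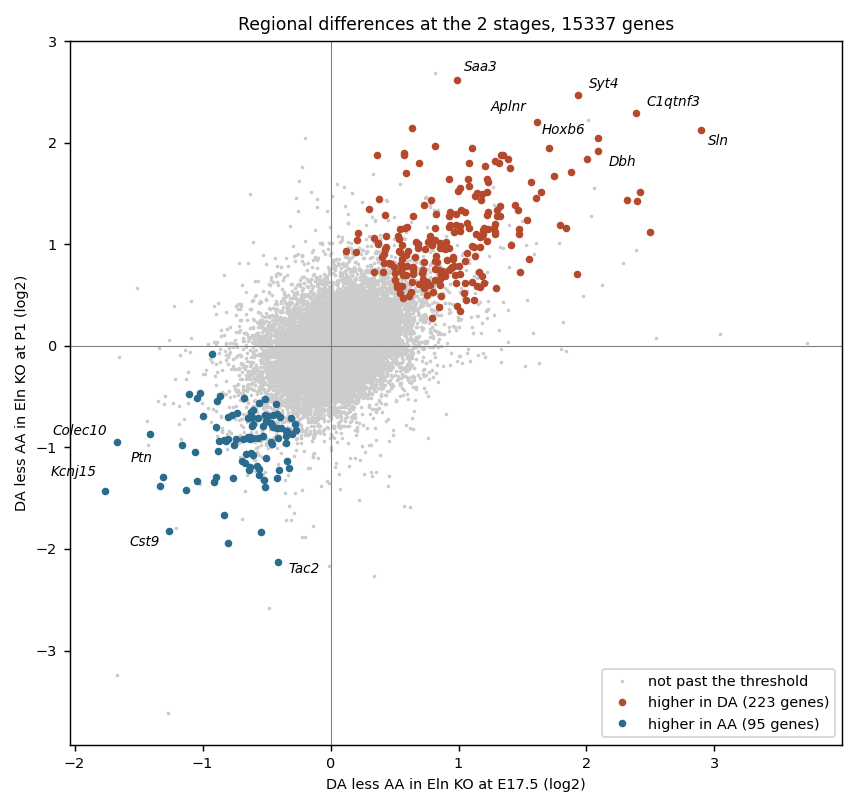
Each point is 1 of 15337 genes, placed by its DA less AA difference in Eln KO aorta at E17.5 (horizontal axis) and at P1 (vertical axis), both in log2 units. Red marks the 223 genes higher in DA and blue the 95 higher in AA in the mean of both stages; all of them lie in the lower left or upper right quadrant.

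The 2 genes with the smallest p values, 1 in each direction, and 2 others the results turn on are shown by their promoters. The windows are from RefSeq on GRCm38.p6, 250 bases before to 50 after the annotated start, and read 5′ to 3′ in the direction of the gene. Capitals mark TGATNNAT, the kind of site that PBX and HOX proteins bind together, and the TATA box letters TATAAA, on either strand (as ATNNATCA and TTTATA in the second case). TGATNNAT occurred in 8.85% and TATAAA in 13.6% of all 32851 promoter windows. C1qtnf3 (chr15:10952082-10952381, plus strand) was the DA gene with the smallest p and had 1 match to each motif. Hoxb8 (chr11:96281655-96281954, plus strand) was a called Hox gene and had 1 TGATNNAT, 11 bases before the start, and 2 TATAAA. Ptn (chr6:36810130-36810429, minus strand) was the AA gene with the smallest p and had no match to either. Kcnj15 (chr16:95257308-95257607, plus strand) had the largest difference of the genes called higher in AA and 1 TATAAA.
C1qtnf3: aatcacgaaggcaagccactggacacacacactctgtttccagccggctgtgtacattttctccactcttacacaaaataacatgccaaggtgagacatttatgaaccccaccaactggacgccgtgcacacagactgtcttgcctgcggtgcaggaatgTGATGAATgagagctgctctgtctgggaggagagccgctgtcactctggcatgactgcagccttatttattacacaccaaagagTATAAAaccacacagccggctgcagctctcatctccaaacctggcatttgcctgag
Hoxb8: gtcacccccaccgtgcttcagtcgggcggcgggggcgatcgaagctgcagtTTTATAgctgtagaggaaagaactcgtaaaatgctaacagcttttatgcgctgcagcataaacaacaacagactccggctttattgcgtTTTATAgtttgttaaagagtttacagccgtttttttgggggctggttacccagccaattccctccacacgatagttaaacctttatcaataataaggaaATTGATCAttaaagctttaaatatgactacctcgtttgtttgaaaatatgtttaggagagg
Ptn: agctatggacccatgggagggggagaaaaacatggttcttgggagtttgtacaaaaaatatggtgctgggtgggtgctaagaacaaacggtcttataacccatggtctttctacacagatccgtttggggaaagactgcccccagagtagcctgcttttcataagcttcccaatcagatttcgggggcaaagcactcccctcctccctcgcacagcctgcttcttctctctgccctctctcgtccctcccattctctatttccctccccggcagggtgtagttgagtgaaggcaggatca
Kcnj15: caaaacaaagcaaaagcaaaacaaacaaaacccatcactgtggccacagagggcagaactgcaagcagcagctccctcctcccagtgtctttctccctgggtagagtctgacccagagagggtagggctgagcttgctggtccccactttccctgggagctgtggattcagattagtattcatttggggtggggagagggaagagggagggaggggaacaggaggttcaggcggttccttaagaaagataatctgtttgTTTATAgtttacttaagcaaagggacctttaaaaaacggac
Of the 9 Hox genes called higher in DA, 4 had a window in the RefSeq table, and 1 of these, Hoxb8, held TGATNNAT.

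Hox genes separated the segments by position in their clusters. Of 12 tested genes of paralogue groups 6 to 13, which mark the trunk and tail, 7 were higher in DA and 0 higher in AA, and the median difference was 0.73 against 0.03 for all genes tested. Of all tested genes 1.45% were called higher in DA and 0.619% higher in AA, shares that apply to each list count below. Hoxb6 read 5.37 and 6.25 (E17.5) and 4.92 and 4.40 (P1) in AA, against 7.39 and 7.65 (E17.5) and 7.09 and 6.13 (P1) in DA. Its DA arrays lay above its AA arrays within each stage, and 1 AA array at E17.5 exceeded 1 DA array at P1 (1.83 ± 0.24, 3.54-fold, adjusted p = 3.2e-05). Hoxc6 (1.49), Hoxc8 (1.37), Hoxa7 (1.28), Hoxb8 (1.10), Hoxd8 (0.73) and Hoxb7 (0.69) also passed the test. The call of Hoxd8 was lost in 10 of 16 alternative settings that use both stages. The other 5 tested genes, named here after their values were seen, did not pass, with 0.55 for Hoxa6, 0.73 for Hoxa9, 0.32 for Hoxb9, -0.05 for Hoxc10 and -0.06 for Hoxd10. With 1 array left out the count of 7 ranged from 4, without the first AA replicate at E17.5, to 7. The other 10 listed genes of these groups were not tested because they had no probe set of their own or stayed under the filter on low signal.

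The anterior Hox genes split between groups 4 and 5. Of 10 tested genes of groups 1 to 5, Hoxb5 (1.40 ± 0.22, adjusted p = 0.00032) and Hoxa5 (1.31 ± 0.29, adjusted p = 0.011) were higher in DA. Hoxb5 read 5.56 and 5.78 (E17.5) and 5.47 and 5.00 (P1) in AA, against 6.33 and 6.28 (E17.5) and 8.09 and 6.68 (P1) in DA. Every DA array was above every AA array. The 8 others did not pass, with differences from -0.43 for Hoxa2 to 0.43 for Hoxc4, and their list had a median of 0.06.

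**Figure D2:**
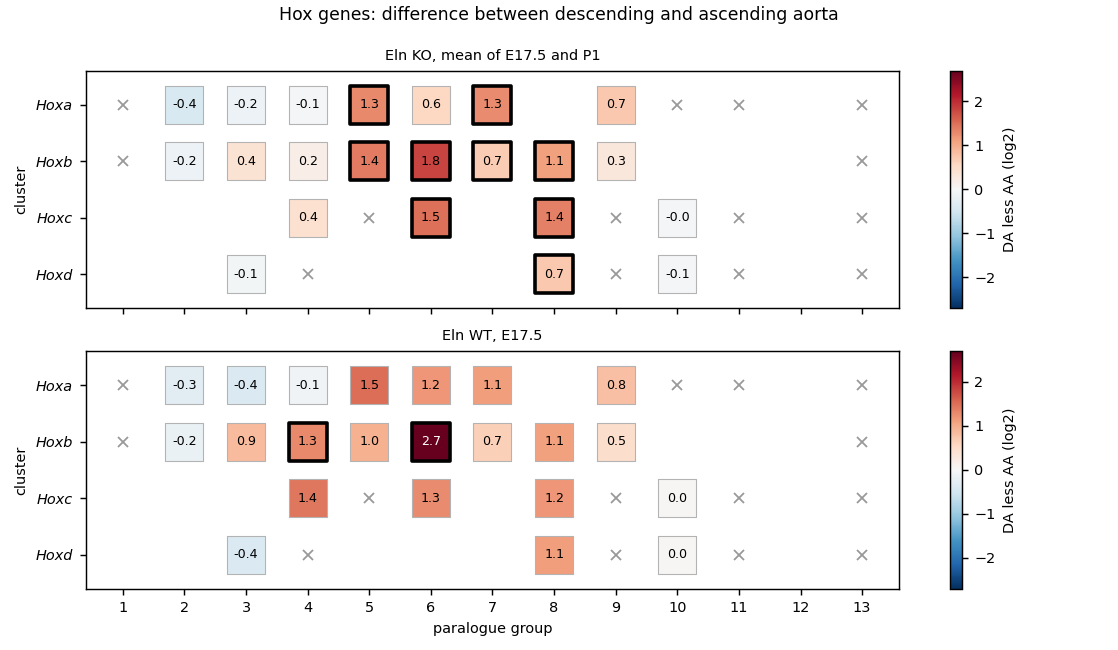
Squares are Hox genes, placed by paralogue group (horizontal axis) and cluster (vertical axis), coloured and numbered by DA less AA in log2 units; a thick black edge marks an adjusted p up to 0.05 and a grey cross a listed gene that was not tested. In the Eln KO (top, mean of both stages) the 9 called genes lie in groups 5 to 8; the lower panel gives the same genes in Eln WT at E17.5.

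Other transcription factors of trunk mesoderm and of the outflow region moved in both directions. Among 20 tested factors of somites and trunk mesoderm, Meox2, a homeobox factor of somites and vascular cells, and Nr2f2, the venous and mesenchymal nuclear receptor COUP-TFII, were higher in DA (1.59 ± 0.25 and 1.06 ± 0.16). Osr1, a zinc finger factor of intermediate and lateral mesoderm, was higher in AA (-0.61 ± 0.15). The list's median was -0.07. Meox2 read 5.34 and 6.59 (E17.5) and 4.85 and 5.06 (P1) in AA, against 7.68 and 7.39 (E17.5) and 6.07 and 7.08 (P1) in DA. Within each stage the DA arrays were the higher ones, with adjusted p = 0.00032 over both.

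Of 16 tested factors of the outflow tract and second heart field, Gata6, a zinc finger factor needed for outflow septation, was the 1 that passed. It read 9.11 and 9.00 (E17.5) and 8.86 and 9.07 (P1) in AA, against 8.72 and 8.78 (E17.5) and 8.24 and 8.27 (P1) in DA. Every AA array was above every DA array by a small step (-0.51 ± 0.13, 1.42-fold, adjusted p = 0.030), and the call was lost in 10 of 16 alternative settings that use both stages, 7 of them with 1 array left out. Among 15 factors of neural crest mesenchyme, Dlx5 and Dlx6, paired homeobox genes of the crest and branchial arches, were higher in AA (-1.07 ± 0.23 and -0.72 ± 0.20). Prrx1 and Foxd1 of the same list were higher in DA (1.04 ± 0.16 and 1.04 ± 0.18). Dlx5 read 7.01 and 6.96 (E17.5) and 5.86 and 6.57 (P1) in AA, against 5.90 and 5.76 (E17.5) and 4.92 and 5.55 (P1) in DA. Its arrays did not overlap within a stage. Crabp1, a cytoplasmic retinoic acid binding protein, was the 1 of 14 tested retinoic acid genes that passed (1.20 ± 0.33, higher in DA, adjusted p = 0.045).

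The genes with the largest differences on the DA side were of several kinds. C1qtnf3, which encodes the secreted C1q-related protein CTRP3, read 3.85 and 5.15 (E17.5) and 4.50 and 5.23 (P1) in AA, against 6.94 and 6.83 (E17.5) and 7.01 and 7.30 (P1) in DA. All 4 DA arrays were above all 4 AA arrays, and the difference was 2.34 ± 0.24 (5.05-fold, adjusted p = 6.4e-07). Aplnr, the receptor of the vasoactive peptide apelin, was 1.91 ± 0.28 higher in DA, from 4.77 to 6.11 in the AA arrays and from 6.13 to 7.83 in the DA arrays. Chrdl1, a secreted antagonist of bone morphogenetic proteins, was 1.71 ± 0.26 higher and the 1 of 21 tested genes of the TGF-beta and BMP list that passed. Saa3, an acute phase protein, read 3.37 and 3.88 (E17.5) and 5.70 and 6.38 (P1) in AA, against 4.61 and 4.61 (E17.5) and 8.35 and 8.95 (P1) in DA. Its difference was 1.80 ± 0.41 (adjusted p = 0.013).

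Sln had the largest difference of the 318 called genes, 2.51 ± 0.69, and also the largest error among them. Sln encodes sarcolipin, a regulator of the calcium pump of atrial and skeletal muscle. It read 3.43 and 3.32 (E17.5) and 3.67 and 4.83 (P1) in AA, against 7.06 and 5.48 (E17.5) and 6.94 and 5.80 (P1) in DA. The locations did not overlap, but the adjusted p was 0.0498 and the call was lost in 14 of those 16 settings. Myl7, the atrial myosin light chain, was 1.92 ± 0.49 higher in DA (adjusted p = 0.030), at 7.52 to 8.62 in AA and 9.22 to 10.68 in DA. Of the 16 heart muscle genes it was the 1 that passed, and the list's median was -0.04. Heart muscle genes summed to 11.51 to 12.67 log2 units in AA and 11.40 to 12.64 in DA, and their part in the result was not tested.

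**Figure D3:**
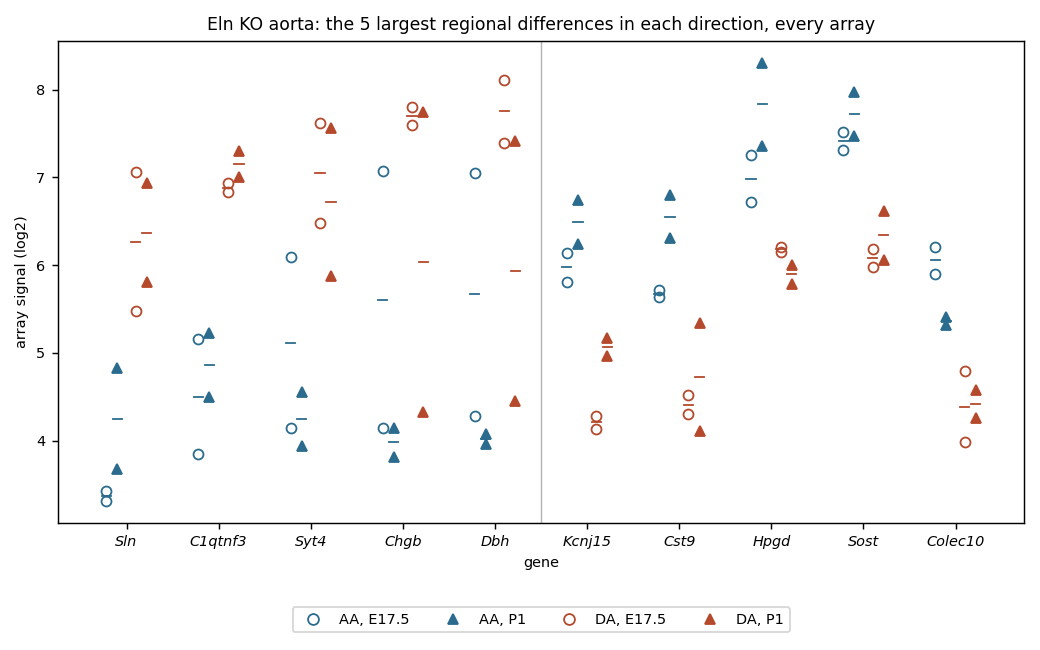
Log2 array signal (vertical axis) of the 5 genes with the largest differences towards DA and the 5 towards AA in Eln KO aorta (horizontal axis). Each symbol is 1 array of 8 pooled aortas, open circles for E17.5 and filled triangles for P1, blue for AA and red for DA, and short bars are means of 2 arrays; Chgb and Dbh have 1 high AA array at E17.5 and 1 low DA array at P1, while C1qtnf3 and Kcnj15 do not overlap.

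Among the 95 genes called higher in AA, Kcnj15, an inward rectifier potassium channel, had the largest difference. Pla2g10os differed more, by -2.44 ± 0.70, and missed the threshold (adjusted p = 0.061). Kcnj15 read 6.14 and 5.81 (E17.5) and 6.24 and 6.75 (P1) in AA, against 4.14 and 4.28 (E17.5) and 5.17 and 4.96 (P1) in DA. No DA array reached an AA array (-1.60 ± 0.18, 3.02-fold, adjusted p = 1.8e-06). Ptn, the heparin-binding growth factor pleiotrophin, read 9.89 and 9.74 (E17.5) and 8.50 and 8.62 (P1) in AA, against 8.59 and 8.43 (E17.5) and 7.10 and 7.44 (P1) in DA. Its step between the locations was nearly the same at both stages, -1.31 and -1.29, on levels that were lower at P1, although the sources used here do not say whether the 2 stages were normalized together (-1.30 ± 0.13 over both, adjusted p = 6.4e-07).

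Secreted signals and their antagonists were among the other AA genes. Wnt16, a Wnt ligand, read 6.83, 6.84, 7.17 and 7.10 in the AA arrays and 5.68, 5.74, 5.69 and 5.74 in the DA arrays. These were among the tightest replicates of any gene named here (-1.27 ± 0.15, adjusted p = 6.4e-06), and Wnt16 was the 1 of 20 tested Wnt genes that passed. Sost encodes sclerostin, a secreted inhibitor of Wnt signalling known from bone, and was -1.36 ± 0.25 (adjusted p = 0.0019). It ranged from 7.31 to 7.98 in AA and from 5.98 to 6.62 in DA. Tac2, the precursor of neurokinin B, read 5.40 and 5.00 (E17.5) and 7.18 and 6.83 (P1) in AA, against 4.71 and 4.86 (E17.5) and 4.33 and 5.42 (P1) in DA. Its difference was -0.41 at E17.5 and -2.13 at P1, and -1.27 ± 0.18 over both.

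The remaining genes named on this side were receptors, transporters, enzymes and others. Npy1r, a receptor of neuropeptide Y, was -1.25 ± 0.22, with 5.53 to 8.03 in AA and 4.90 to 6.28 in DA. Hpgd, which inactivates prostaglandins, was -1.37 ± 0.24, and Slc24a4, a sodium, calcium and potassium exchanger, -1.13 ± 0.20. Hspb7, a small heat shock protein of muscle, was -1.09 ± 0.18, and Nav2, a cytoskeletal regulator, -1.03 ± 0.18. Cst9, a cystatin family member, was -1.54 ± 0.28, the collectin gene Colec10 -1.31 ± 0.25, and Tmem26, a membrane protein gene, -1.05 ± 0.20. Csn2, the gene of the milk protein beta-casein, was -1.19 ± 0.32 with signals of 1.82 to 5.28, and it lost its call in 13 of those 16 settings.

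Elastic fibre genes did not pass the test between the segments. Of 20 tested genes of elastic fibre assembly and cross-linking, 0 passed in either direction. At unadjusted values 8 differences were positive and 12 negative, against 44.1% negative among all tested genes, with a list median of -0.18. At both stages the AA arrays lay above the DA arrays for 8 of the 20, against 5.11% of all tested genes. The reverse held for 1, against 8.25% of all. Of 21 collagens 3 were higher in DA. Col8a1, a network-forming collagen, read 7.35 and 7.97 (E17.5) and 6.28 and 6.82 (P1) in AA, against 8.91 and 9.03 (E17.5) and 8.27 and 8.44 (P1) in DA. Every DA array was above every AA array (1.56 ± 0.25, adjusted p = 0.00039). Col11a1, a fibrillar collagen, was 1.18 ± 0.19 higher in DA and Col12a1, a collagen that binds fibrils, 0.73 ± 0.15.

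Among 25 tested proteoglycans and matricellular proteins, 2 were higher in DA and 2 in AA. Sparcl1, a SPARC relative, was 1.06 ± 0.18 and Matn2, matrilin 2, was 0.58 ± 0.15 higher in DA. Acan encodes aggrecan, the large proteoglycan of cartilage and stressed vessel wall, and read 9.48 and 9.22 (E17.5) and 9.74 and 10.15 (P1) in AA, against 8.87 and 9.01 (E17.5) and 8.38 and 8.91 (P1) in DA. AA was higher at both stages, by -0.42 at E17.5 and -1.30 at P1 (-0.86 ± 0.19, adjusted p = 0.010). Ccn3, a matricellular protein, was -0.70 ± 0.14.

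Of 22 tested smooth muscle contractile genes, 0 were higher in DA and 2 in AA, Synpo2 (-0.69 ± 0.14, adjusted p = 0.0049), an actin-binding protein, and Itga8 (-0.52 ± 0.13, adjusted p = 0.025), an integrin of contractile cells. Of the other 20, 19 had a negative difference and 1 a positive one. Of all tested genes 44.1% were negative and 0.619% were called higher in AA. The list's median was -0.38, against 0.03 for all genes, -0.17 at E17.5 and -0.47 at P1. Myh11, the smooth muscle myosin heavy chain, was named after its values were seen. It read 10.60 and 10.35 (E17.5) and 10.14 and 10.16 (P1) in AA, against 10.11 and 10.08 (E17.5) and 9.43 and 9.56 (P1) in DA. Its arrays did not overlap within a stage, but the difference of -0.52 ± 0.14 missed the threshold (adjusted p = 0.052). In Eln WT at E17.5 the same list had 10 positive and 12 negative differences and a median of -0.04. Macrophage, endothelial and nerve markers moved the other way in the same arrays, and their part in this result was not tested.

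Guidance molecules and vasoactive receptors held a few called genes each. Of 19 tested guidance genes, 4 were higher in DA. They were Plxnd1 (0.90 ± 0.19) and Nrp1 (0.86 ± 0.18), receptor subunits for semaphorins, the semaphorin Sema3a (0.61 ± 0.11), and Slit2 (0.72 ± 0.18), a ligand of Robo receptors. Robo1, such a receptor, was higher in AA (-0.66 ± 0.18). Of 21 tested vasoactive receptors and channels, Ednrb, the endothelin B receptor, and Agtr2, the type 2 angiotensin receptor, were higher in DA (1.14 ± 0.25 and 0.85 ± 0.18). Ace, the angiotensin-converting enzyme, was higher in AA (-0.50 ± 0.14, adjusted p = 0.048), a call lost in 12 of the 16 settings and with each of the 8 arrays left out. Agtr2 read 7.53 and 7.99 (E17.5) and 7.09 and 7.75 (P1) in AA, against 8.50 and 8.50 (E17.5) and 7.94 and 8.82 (P1) in DA, so its DA arrays were above its AA arrays within each stage. Zbtb16, a zinc finger factor induced by glucocorticoids, was the 1 of 10 genes of that response that passed (-0.91 ± 0.17, adjusted p = 0.0023).

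The calls of some nerve cell genes on the DA side rested on single arrays. Of the 15 largest DA genes, 7 are known from neurons or chromaffin cells, namely Syt4, Chgb, Dbh, Snap25, Ina, Npy and Nefl, a grouping made after their values were seen. Dbh, the enzyme that makes noradrenaline from dopamine, read 4.28 and 7.05 (E17.5) and 3.96 and 4.08 (P1) in AA, against 8.11 and 7.39 (E17.5) and 4.45 and 7.42 (P1) in DA. The second AA array at E17.5 was high and the first DA array at P1 was low, so the locations overlapped across stages. Chgb, a secretory granule protein, had the same 2 arrays apart, at 7.07 and 4.33. Dbh differed by 2.00 ± 0.54 (adjusted p = 0.043) and Chgb by 2.07 ± 0.57 (adjusted p = 0.048). Without the high AA array they differed by 2.69 and 2.81, and without its partner by 1.31 and 1.34, no longer past the threshold (adjusted p = 0.43 and 0.45). Syt4, a synaptotagmin, differed by 2.20 ± 0.48, Snap25, a protein of vesicle fusion, by 1.97 ± 0.50, and Npy, neuropeptide Y, by 1.88 ± 0.48. The neurofilament genes Ina and Nefl differed by 1.91 ± 0.49 and 1.81 ± 0.47. Without the first AA array at E17.5 none of the 7 passed, with adjusted p from 0.14 to 0.45.

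The sympathetic and chromaffin list as a whole had 11 tested genes, 3 of them higher in DA (Chgb, Dbh and Npy), 0 higher in AA and a median of 0.82. With 1 array left out its count ranged from 0, without the first AA replicate at E17.5 among others, to 8, without the first DA replicate at P1. Its summed level was 9.02 and 10.31 log2 units in the 2 AA arrays at E17.5 and 9.42 in both at P1. In DA it was 10.70 and 11.28 at E17.5 and 9.32 and 11.11 at P1. The locations overlapped at P1. Foxd3, a neural crest and glial precursor factor, was the 1 of 9 tested Schwann cell and melanocyte genes that passed (0.58 ± 0.15, higher in DA).

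Of 15 tested macrophage genes, 8 were higher in DA and 0 in AA, and the 7 others were all positive, with a median of 0.85 over the list. Of all tested genes 1.45% were called higher in DA and 55.9% were positive. The 6 largest were Tyrobp (1.31), Fcgr3 (1.13), Lyz2 (1.04), Mrc1 (1.01), Csf1r (0.99) and C1qb (0.94). Fcgr3, a low-affinity IgG receptor, read 4.50 and 5.31 (E17.5) and 5.51 and 6.02 (P1) in AA, against 5.93 and 6.24 (E17.5) and 6.98 and 6.71 (P1) in DA. DA was above AA within each stage (1.13 ± 0.18, adjusted p = 0.00041). The count of 8 depended on the arrays. Without the first AA replicate at E17.5 Fcgr3 alone passed, with a list median of 0.71. The count was 2 without the first AA replicate at P1, 3 without the first and 5 without the second DA replicate at E17.5, 5 without the second DA replicate at P1, and 8 to 11 when 1 of the other 3 arrays was left out. The list's summed level was 9.45 and 10.21 (E17.5) and 10.26 and 10.98 (P1) in AA, against 10.81 and 10.89 (E17.5) and 11.52 and 11.61 (P1) in DA. In Eln WT at E17.5, 14 of the 15 were positive with a median of 0.50, and 0 passed.

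Cpa3, the mast cell carboxypeptidase, was among the 15 largest (1.80 ± 0.30, adjusted p = 0.00061). It read 6.03 and 7.79 (E17.5) and 6.77 and 7.16 (P1) in AA, against 8.73 and 8.85 (E17.5) and 8.17 and 9.19 (P1) in DA. All DA arrays exceeded all AA arrays. The mast cell proteases Tpsb2 (1.26), Mcpt4 (1.24) and Cma1 (1.21), chosen after their values were seen, passed as well. Mcpt4 was low at E17.5 and its locations overlapped there, at 1.69 and 2.33 in AA against 3.16 and 2.01 in DA. Its difference was 0.58 at E17.5 and 1.90 at P1.

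Endothelial genes were positive in 17 of 17 cases, against 55.9% of all tested genes, and 4 passed, against 1.45% called higher in DA. They were Emcn, the sialomucin endomucin (1.22 ± 0.21), Kdr, the main VEGF receptor (1.05 ± 0.25), Vwf, von Willebrand factor (0.94 ± 0.16), and Cldn5, a tight junction protein (0.68 ± 0.18). The list's median was 0.45. Without the first AA replicate at E17.5 Kdr (adjusted p = 0.21) and Cldn5 (adjusted p = 0.22) no longer passed, and with 1 array left out the count ranged from 2 to 6. Vwf read 7.25 and 7.38 (E17.5) and 7.96 and 7.86 (P1) in AA, against 8.26 and 8.17 (E17.5) and 8.65 and 9.12 (P1) in DA. The locations did not overlap. Of 10 brown fat genes, 1 passed, the fatty acid transporter Cd36 (1.61 ± 0.38, higher in DA), while Ucp1, which defines the tissue, was 0.44 with an adjusted p of 0.81. The 9 that did not pass were all positive, and the list's median was 0.63, with 0.37 at E17.5 and 1.055 at P1. Its summed level was 10.42 and 10.44 (E17.5) and 11.39 and 11.88 (P1) in AA. In DA it was 10.86 and 10.93 (E17.5) and 11.98 and 12.43 (P1). Of 12 adventitial fibroblast genes Fap passed (0.91 ± 0.18), and of 7 genes of red cells and platelets Pf4 did (0.94 ± 0.21), both higher in DA. The mesothelial gene Upk3b was higher in AA (-0.71 ± 0.19), the 1 of 12 that passed.

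Some lists had no called gene. Of 10 tested thymocyte and lymphocyte genes 9 were negative, against 44.1% of all tested genes, with a median of -0.68, and 0 passed. Their summed level was 7.36 and 7.74 (E17.5) and 9.19 and 9.53 (P1) in AA, against 7.21 and 7.46 (E17.5) and 7.93 and 8.75 (P1) in DA. Of 11 skeletal muscle genes 0 passed, with medians of 1.33 at E17.5 and 0.04 at P1. Their summed level was 10.42 and 12.00 in DA and 9.22 and 9.46 in AA at E17.5. Cell cycle, Notch and ephrin, hypoxia, immediate early and interferon genes had 0 called members among 16, 16, 10, 17 and 6 tested. The part of these cell types in the differences of other genes was not tested.

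**Figure D4:**
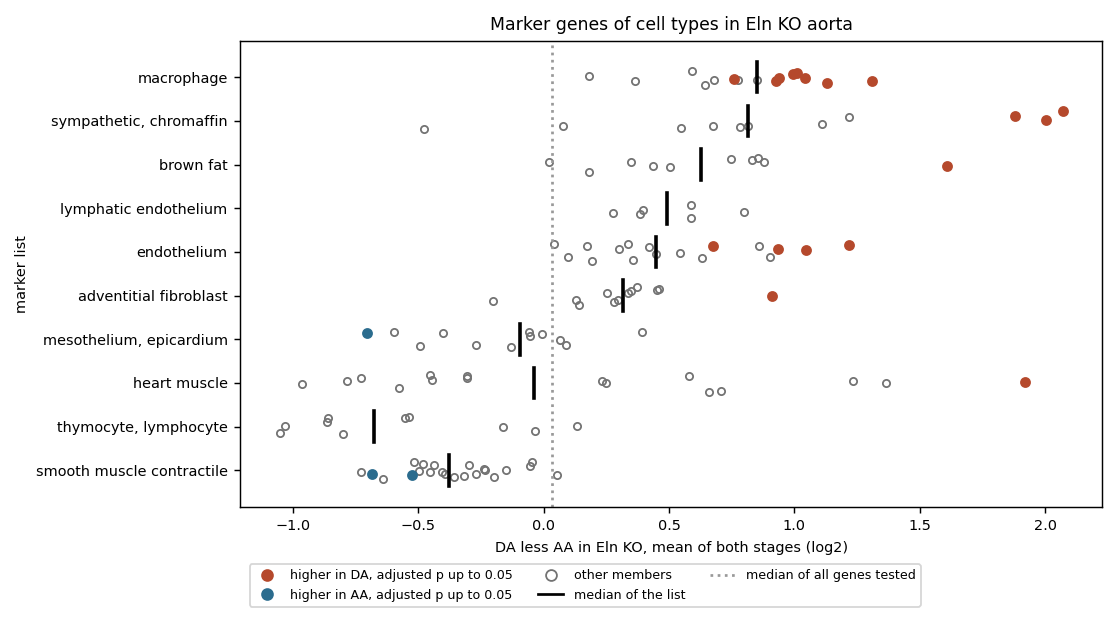
Points are marker genes of the list named on the vertical axis, placed by DA less AA in Eln KO aorta, mean of both stages, in log2 units (horizontal axis). Filled points passed an adjusted p of 0.05, black bars are list medians and the dotted line is the median of all genes tested (0.03); macrophage markers have a median of 0.85 with 8 of 15 called, and smooth muscle contractile genes one of -0.38 with 2 of 22 called. The vertical scatter within a list carries no value.

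Fewer genes passed within a stage than over both. At P1 alone 119 genes passed (0.776%), 72 higher in DA (0.469%) and 47 in AA (0.306%). At E17.5 alone 18 passed (0.117%), 11 higher in DA (0.0717%) and 7 in AA (0.0456%). Of the 119, 113 (95%) had the same sign at E17.5, as 61.8% of all tested genes did, and of the 18 all had the same sign at P1. The 10 genes called at both stages included C1qtnf3, Kcnj15, Ptn, Wnt16, Hoxb6 and Chrdl1 of the genes described above. The P1 and E17.5 differences did not differ for any gene after adjustment in limma (0 of 15337, 0%, smallest adjusted p 0.20), with 451 at an unadjusted p under 0.05 (2.94%). The count at E17.5 was 0 without the first AA array and 90 without the second, which holds the high nerve genes, and that at P1 was 24 without the first AA array and 295 without the second DA array. Without that DA array 14 genes differed between the stages.

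The WT arrays of the same model differed in background between the locations at P1. Both Eln WT DA arrays there read high, with receptor gene medians of 3.12 and 3.53 against 2.83 and 2.97 in the AA arrays, and array medians of 4.85 and 4.89 against 4.52 and 4.53. DA less AA called 4657 genes (30.4%) at P1 in WT and 2268 (14.8%) in the mean of both stages. At E17.5 alone 27 genes passed in WT (0.176%), 14 higher in DA (0.0913%) and 13 in AA (0.0848%). All 27 had the same sign in the KO mean, and 19 passed there too. Among these were Hhip (1.58 in KO), which encodes a decoy receptor for hedgehog ligands, the lymphangiogenic factor Vegfd (1.62), the chemokines Ccl11 (1.53) and Cxcl13 (1.42), Vwf and Ptn. All 27 were smaller in size in the KO than in WT, and they had been chosen by their WT values, so the 2 sizes are not on equal terms.

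Read from the KO, 297 of its 318 genes (93.4%) had the same sign in WT at E17.5, as 52.3% of all tested genes did. Their median size was 0.86 in the KO and 0.55 in WT, again after choice by 1 side. A broader reference was added after the data were seen, from 4 WT pairs, E17.5 of all 3 models and P1 of Lox. In these pairs the mean receptor median of DA less that of AA ran from -0.08 to 0.12. It was 0.43 in Eln WT and -0.18 in Efemp2 WT at P1, the pairs left out. The reference weighs E17.5 more than P1, while the KO mean weighs both equally, and it also holds pairs of the Efemp2 and Lox models. Stage, model and genotype are therefore mixed when the reference and the KO mean are compared. The Lox WT arrays at P1 had high levels in both locations, with array medians of 5.21 to 5.35 and receptor medians of 2.91 to 3.09. This reference called 725 genes (4.73%), and 190 were called in both, 59.7% of the KO list and 26.2% of the WT list. Of the 318, 299 (94%) had the same sign there.

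**Figure D5:**
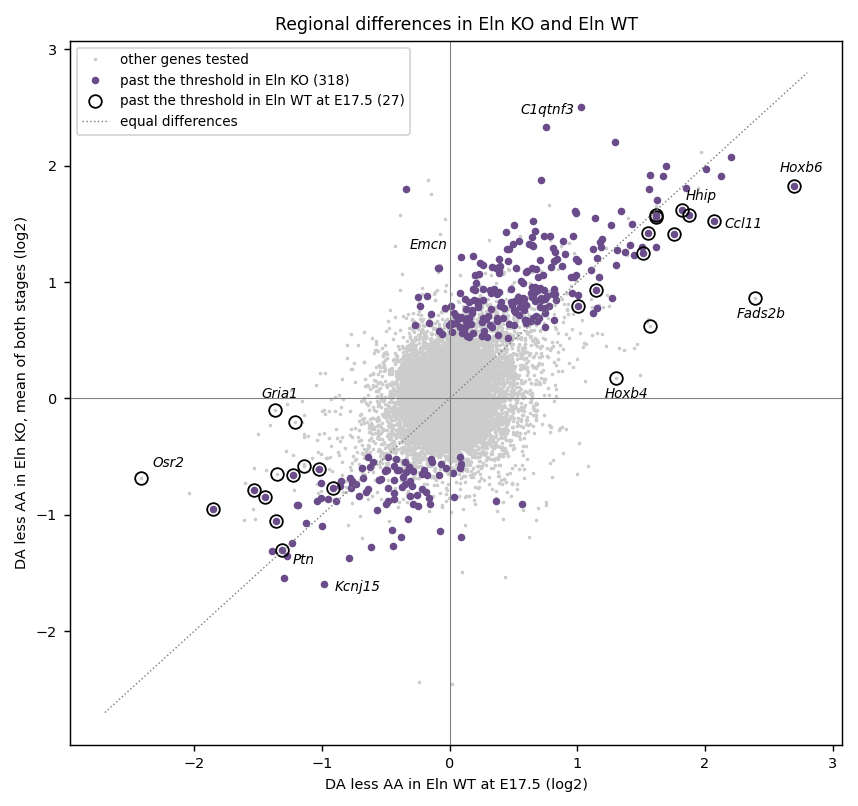
Each point is a gene, placed by DA less AA in Eln WT at E17.5 (horizontal axis) and in Eln KO, mean of both stages (vertical axis), in log2 units. Purple marks the 318 genes past the threshold in the KO, rings the 27 past it in WT at E17.5, and the dotted line equal differences; all 27 rings share the sign of the KO, and Osr2 lies farthest from the line among those named.

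The 8 genes called in WT at E17.5 but not in the KO were Osr2, Gria1, Fez1, Akr1c14, Srpx2, Hoxb4, Itgbl1 and Fads2b. Osr2, a zinc finger factor of palate and limb mesenchyme, read 6.55 and 7.10 in WT AA and 4.19 and 4.63 in WT DA at E17.5. In the KO it read 5.54 and 5.04 (E17.5) and 5.40 and 6.19 (P1) in AA, against 4.46 and 4.60 (E17.5) and 5.14 and 5.24 (P1) in DA. Its WT arrays stood far apart, and in the KO the AA arrays were nearer to DA. The difference was -2.42 ± 0.29 in WT at E17.5 and -0.68 ± 0.20 in the KO (adjusted p = 0.073). Gria1, an AMPA glutamate receptor subunit, read 5.70 and 5.60 in WT AA and 4.41 and 4.16 in WT DA at E17.5, and 3.90 to 4.32 in all 8 KO arrays. Its difference was -1.36 ± 0.26 in WT at E17.5 and -0.10 ± 0.18 in the KO mean of both stages. Hoxb4 was 1.30 in WT at E17.5 and 0.18 in the KO mean. In WT at P1, less the median of all genes, Gria1 was 0.18 and Hoxb4 0.23, and neither passed. Their genotype differences over both stages did not pass in limma (adjusted p = 0.14 and 0.26). Against the 4 WT pairs they did not pass either (adjusted p = 0.11 and 0.76).

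The test of the difference between genotypes gave answers that depended on the reference. At E17.5 alone 0 of 15337 genes passed in limma (0%), with 354 at an unadjusted p under 0.05. Averaged over both stages 804 passed (5.24%), and at P1 alone 1956 (12.8%), the stage with the raised background in WT DA. With that background as a covariate 21 passed. Against the 4 WT pairs 1 gene passed (0.00652%), Osr2, whose AA excess was smaller in the KO by 1.69 ± 0.25 (adjusted p = 0.0020). With the 3 pairs at E17.5 alone as reference 2 passed, Osr2 (1.77 ± 0.26, adjusted p = 0.0022) and Plac8, named here after its value was seen. Both of these references weigh E17.5 more than the KO mean does and hold WT pairs of the other models, so stage, model and genotype are mixed there. Against the Eln WT arrays the Osr2 difference was 1.65 ± 0.41 at E17.5 and did not pass (adjusted p = 0.999). Over both stages it was 1.37 ± 0.29 less the median of all genes, or 1.55 before that (adjusted p = 0.0058). Of the 318 genes, 61 passed against the Eln WT arrays of both stages, C1qtnf3, Kcnj15 and Emcn among them, and 0 against the 4 or the 3 pairs.

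The Efemp2 and Lox knockouts, which share no array with the Eln knockout, gave their own values for the same genes. In Efemp2 KO 198 genes passed DA less AA (1.29%), and 90 of them were among the 318, 28.3% of the Eln list and 45.5% of the Efemp2 list. Of the 318, 282 (88.7%) had the same sign there, as 55.2% of all tested genes did. In Lox KO 250 passed (1.63%), 122 were shared, 38.4% and 48.8%, and 308 (96.9%) had the same sign against 64.5% of all. Ptn was -1.93 in Efemp2 KO and -1.95 in Lox KO, Hoxb6 1.64 and 3.05, Chrdl1 1.96 and 2.01, and C1qtnf3 1.10 and 1.48, all past the threshold. Sln, at 0.13 and 0.10, and Myl7, at -0.22 and 0.43, did not pass in either. The macrophage list had medians of 0.03 in Efemp2 KO and 0.20 in Lox KO against 0.85 in Eln KO, a difference that was not tested. Osr2 passed in both, at -1.37 and -1.99.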

How the data were processed

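Values as deposited are log2 probe set signals. The submitters' processing notes name RMA and the Affymetrix Expression Console. Versions, array name and genome build are not given in the sources used here. RMA compresses differences of dim probe sets, and precision is limited by how few arrays each group has. Of 41345 probe sets, 23521 carried 1 gene symbol, 1814 several and 16010 none. For each of 22180 genes the probe set with the highest mean was used, and the 15337 genes with a group mean of at least 4.94, the median, were tested.

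The model, fitted with limma (version 3.58.1, R 4.3.3; lmFit and eBayes), used the 48 arrays together and gave each of 24 groups its own mean, which left 24 residual degrees of freedom. DA less AA was taken within a stage and averaged. P values were adjusted by Benjamini-Hochberg over all tested genes, with a threshold of 0.05. Errors are standard errors of that fit. Where the median difference over all genes passed 0.1, it was subtracted from gene values but not before the tests. This held for Eln WT at P1, Lox KO, and the genotype differences against Eln WT over both stages and at P1. The fit was tested on simulated data.

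Members and lists were chosen with earlier results of these data known. Named are the 15 largest called genes of each direction, up to 8 and 8 for the genotype difference, up to 6 called members per list, and any member of a list of at most 10. Predicted, receptor and small RNA genes were skipped. Alternatives changed the filter, normalization, arrays, variance model, a replicate block, array background as a covariate, and each array left out. The references of 4 and of 3 WT pairs were added after the data were seen. Promoters are from RefSeq, GRCm38.p6, matched by symbol.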

Additional observations from a re-analysis of the deposited data

Results flagged for a closer look

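DA less AA differed between Eln KO and Eln WT by a test of the difference itself, averaged over both stages, for the 16 genes named here, the largest of 804 past the threshold (5.24%). On the positive side were Saa3 (1.94), Adig (1.65), Tgoln1 (1.62), Isg15 (1.62), Emcn (1.61), Scamp5 (1.59), Crabp1 (1.53) and Mnd1 (1.51), in log2 units less the median of all genes. Emcn, an endothelial sialomucin, was 1.28 ± 0.29 higher in DA of the KO at E17.5 (adjusted p = 0.068 in limma) against 0.08 ± 0.29 in WT, with 7.78 and 7.67 in WT AA and 6.01 and 6.40 in KO AA at that stage. On the negative side were Pla2g10os (-5.05), Astx5 (-3.69), Srsy (-3.03), Smok4a (-2.85), Serpinb9e (-2.67), Speer4c (-2.66), Speer4cos (-2.64) and Srsx (-2.60), several of them known from testis. Pla2g10os read 9.72 and 9.99 in the WT DA arrays at P1 and 5.69 and 5.32 at E17.5, and Astx5 8.55 and 8.34 against 3.90 and 3.59. Both WT DA arrays at P1 are the ones that read higher in background than their AA arrays. With the covariate Emcn, Scamp5 and Serpinb9e still passed, and 0 of the 16 passed in every alternative. Against the 4 WT pairs, or the 3 at E17.5, none of the 16 passed. At E17.5 alone 0 genes passed in limma, with 354 at an unadjusted p under 0.05.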

How the results depend on the processing

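The KO count of 318 was 6 with the E17.5 arrays only, 35 with P1 only, 170 with only the 16 Eln arrays and 106 with only the arrays compared, and 87 to 385 when 1 array was left out. The other settings gave 269 to 423, and under cyclic loess the split was 244 higher in DA and 179 in AA, against 223 and 95. With array background as a covariate 325 passed, 192 higher in DA and 133 in AA. At E17.5 the count of 18 was 6, 1 and 0 with only the E17.5, the 16 Eln and the compared arrays, 7 with array background as a covariate, 29 with the filter on the groups compared, 9 with no filter, and 0 to 90 with 1 array left out. At P1 the 119 were 35, 41 and 0 with only the P1, the 16 Eln and the compared arrays, 188 with cyclic loess, and 24 to 295 with 1 array left out. The change with stage stayed at 0 except for 14 without 1 DA array at P1, a range of 0 to 14. The WT count of 2268 was 33 at E17.5 only, 624 with the covariate, 876 with cyclic loess, 36 with only the arrays compared, and 685 to 2487 with 1 array left out. The genotype difference of 804 genes was 0 at E17.5 only and with only the arrays compared, 1 against the 4 WT pairs, 2 against the 3 at E17.5, 21 with the covariate, 248 with cyclic loess (72 positive and 176 negative, against 480 and 324), and 82 to 1406 with 1 array left out. There Adig turned to -0.16 at E17.5 only. Over both stages, the fits of only the arrays compared also used another model, with 1 location effect per genotype shared by the stages. For the genotype difference that fit had the same 16 arrays that gave 580 genes with a mean for each group. Why the counts differed between settings was not tested.

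With the replicate number as a block, 353, 26 and 134 genes passed in the KO over both stages, at E17.5 and at P1, 2607 in WT and 1398 for the genotype difference. The replicate differences of AA and DA correlated at -0.24 in the KO at E17.5 and 0.34 at P1, and at -0.15 to 0.29 in the other genotypes, models and stages. These values differ in sign and do not settle whether the replicate numbers pair the arrays. Over the 16 settings with both stages, 5 of 15 named DA genes (C1qtnf3, Aplnr, Hoxb6, Cpa3, Chrdl1), 10 of 15 AA genes (all but Hpgd, Tac2, Csn2, Dlx5 and Tmem26) and 14 of 56 named list members passed in every one. Of the 78 genes named for the KO, 15 lost their call in over 8 of these settings, namely Ina, Itga8, Cldn5, Gata6, Matn2, Robo1, Hoxd8, Nefl, Dlx6, Crabp1, Dbh, Chgb, Ace, Csn2 and Sln.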
